A study of Homo sapiens with 4 samples.

Results

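The 36 genes described here are effectors of the interferon response, the proteins that carry out the antiviral state once a cell has sensed interferon. They were chosen by name, without the transcription factors of the pathway and without the sensors of foreign nucleic acid, and every probe annotated to one of them was taken. All 36 were found, with 55 of the 47230 probes that had a value on every array, and 12 of the genes had several probes. L591 is a line from a Hodgkin lymphoma, a B-cell-derived tumour, and it carries Epstein-Barr virus. In the PDLIM2 group the cells had been given 40 µg of the pcDNA3 plasmid with transcript variant 2 of PDLIM2, a PDZ and LIM domain protein and putative ubiquitin ligase, and in the mock group 40 µg of pcDNA3 without it. Both groups also received 10 µg of the GFP plasmid pEGFP-N3, were sorted for GFP and were measured on 2 Illumina bead arrays each, numbered 1 and 2, with polyadenylated RNA named as the molecule. No label tells whether the 2 arrays of a group stem from different cultures, and each p-value therefore reflects array-to-array spread that may be purely technical.

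Type I interferons bind a receptor whose kinases activate transcription factors that bind the interferon-stimulated response element, a sequence built around a repeated GAAA, in front of the effector genes. Interferon gamma works through a different element, with TTC and GAA as its arms. Some effectors bind viral RNA, some make or remove the ubiquitin-like tag ISG15, others act in membranes or on nucleotides. They are known to be raised in many virus-carrying and chronically stimulated cells, and their levels differ widely between resting cell lines.

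The repeated GAAA can be read directly in front of these genes. In RefSeq promoter windows (GRCh38.p14, 250 bases before to 50 bases after each annotated start), 28 of the 36 genes were present, and IFIT2, USP18, OAS2, OASL, MX2, IFITM2, GBP2 and TRIM22 had no entry. The letters GAAANNGAAA, searched on both strands, occurred in a window of 22 of these 28 genes (78.6%), against 4.38% of all 27305 genes with a window and 3.57% of all 35116 windows. The letters TTCNNNGAA, which read the same on both strands, occurred for 8 of the 28 (28.6%), against 9.38% of all genes. BST2, EPSTI1, IFI27, IFITM1 and MX1 had windows in which matches of both kinds overlapped. CMPK2, SAMD9L and XAF1 had neither, which says only that these letters are not in those windows. The stretches below are shown because IFIT3, ISG15 and RSAD2 had the lower values in arrays numbered 2, IFIT1 and SAMD9 the higher ones, and HERC5 and BST2 were bright and nearly level over all arrays. Each runs 5′ to 3′ on the gene's strand, upstream of the start, with matches to GAAANNGAAA or its reverse complement in capitals and up to 20 bases on each side.
IFIT3 (chr10:89327821-89327904, + strand): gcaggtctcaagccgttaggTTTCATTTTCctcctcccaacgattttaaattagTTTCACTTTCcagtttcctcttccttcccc
IFIT3, second window (chr10:89332415-89332507, + strand): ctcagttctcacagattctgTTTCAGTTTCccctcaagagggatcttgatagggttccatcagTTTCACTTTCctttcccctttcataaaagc
ISG15 (chr1:1013364-1013419, + strand): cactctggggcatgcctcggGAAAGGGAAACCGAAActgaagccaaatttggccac
RSAD2 (chr2:6877612-6877661, + strand): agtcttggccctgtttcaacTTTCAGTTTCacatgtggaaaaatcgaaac
IFIT1 (chr10:89392487-89392549, + strand): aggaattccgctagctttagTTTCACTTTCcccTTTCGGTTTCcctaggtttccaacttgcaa
SAMD9 (chr7:93118086-93118135, - strand): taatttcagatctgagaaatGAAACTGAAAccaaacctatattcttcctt
HERC5 (chr4:88456974-88457074, + strand): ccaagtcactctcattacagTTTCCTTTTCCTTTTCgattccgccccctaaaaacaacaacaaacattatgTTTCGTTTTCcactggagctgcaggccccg
BST2 (chr19:17405725-17405780, - strand): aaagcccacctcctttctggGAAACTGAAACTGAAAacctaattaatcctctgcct

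In ISG15, BST2 and HERC5 the capitals run together because 2 matches overlap. Only windows with a match were printed, so a match in the genes shown says nothing about direction. IFIT3 and IFIT1, which differed in opposite directions between the array numbers, each had 2 in a stretch shown. Of the members higher in arrays 2 at an unadjusted p under 0.05 (limma), SAMD9L, XAF1 and OAS1 had no GAAANNGAAA in a window. SAMD9, IFIT1 and IFITM3 had it, as did IFIT3, ISG15 and RSAD2 of the lower ones. Whether the letters go with the direction was not tested.

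The values are log2 intensities with nearly equal quartiles on the arrays, and their number, 4, limits the precision of every difference. The 2 probes of PDLIM2 were dim and differed in opposite directions, by 0.31 and -0.29 log2 units, so they do not check the labels. The arrays numbered 2 stood apart from those numbered 1 in both groups: 16.6% of the 23615 probes tested had an unadjusted p under 0.05 between the numbers (limma), against 2.82% between PDLIM2 and mock. Whether the number marks a culture, a day or a hybridisation is not stated in the labels. Of the markers of Hodgkin and B cells, FSCN1, CCL22, TRAF1 and CD79A lay above the 93rd percentile of all probes on both mock arrays. CD30 (TNFRSF8) lay at percentiles 69.3 and 66.6, MS4A1 at 59.8 and 51.0, CCL17 at 64.2 and 26.2, and the B-cell factor PAX5 at 31.9 and 21.1. The T-cell receptor chains CD3D, CD3E and CD3G lay below the median on both mock arrays. The T- and NK-cell gene CD2 lay at 96.2 and 97.4, and NKG7 at 74.98 and 73.73. Of the 3 markers of plasmacytoid dendritic cells, only CLEC4C lay below the median on both mock arrays. LILRA4 lay at 53.1 and 29.76, and IL3RA at 39.61 and 57.58. The neutrophil gene FCGR3B lay at 76.67 and 74.3. The mean log2 level over the 8 T and NK markers was 6.66 to 6.78 in the PDLIM2 arrays and 6.71 to 6.80 in the mock arrays, and that of 6 monocyte markers 6.09 to 6.20 and 6.02 to 6.38. The part of other cell types in the results was not tested.

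The first question was which effectors gave a strong signal without PDLIM2. Each gene is represented by its brightest probe, and a gene is called high here where that probe lay above the 90th percentile of all probes on both mock arrays. By this rule 12 of the 36 genes (33.3%) were high, against 15.4% of the 20045 named genes by their brightest probe and 9.43% of all probes. Another 17 lay above the median on both mock arrays, IFI27 and GBP1 were on either side of it, and 5 lay below it. A probe's brightness also depends on the probe, so these classes say where a signal could be measured and do not rank the genes by transcript level. In the plot of all members by array, the 12 high genes lay near or beyond the dashed line. The 5 dim ones lay left of the dotted line, apart from OAS3 on PDLIM2 array 2 (6.03).

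**Figure D1:**
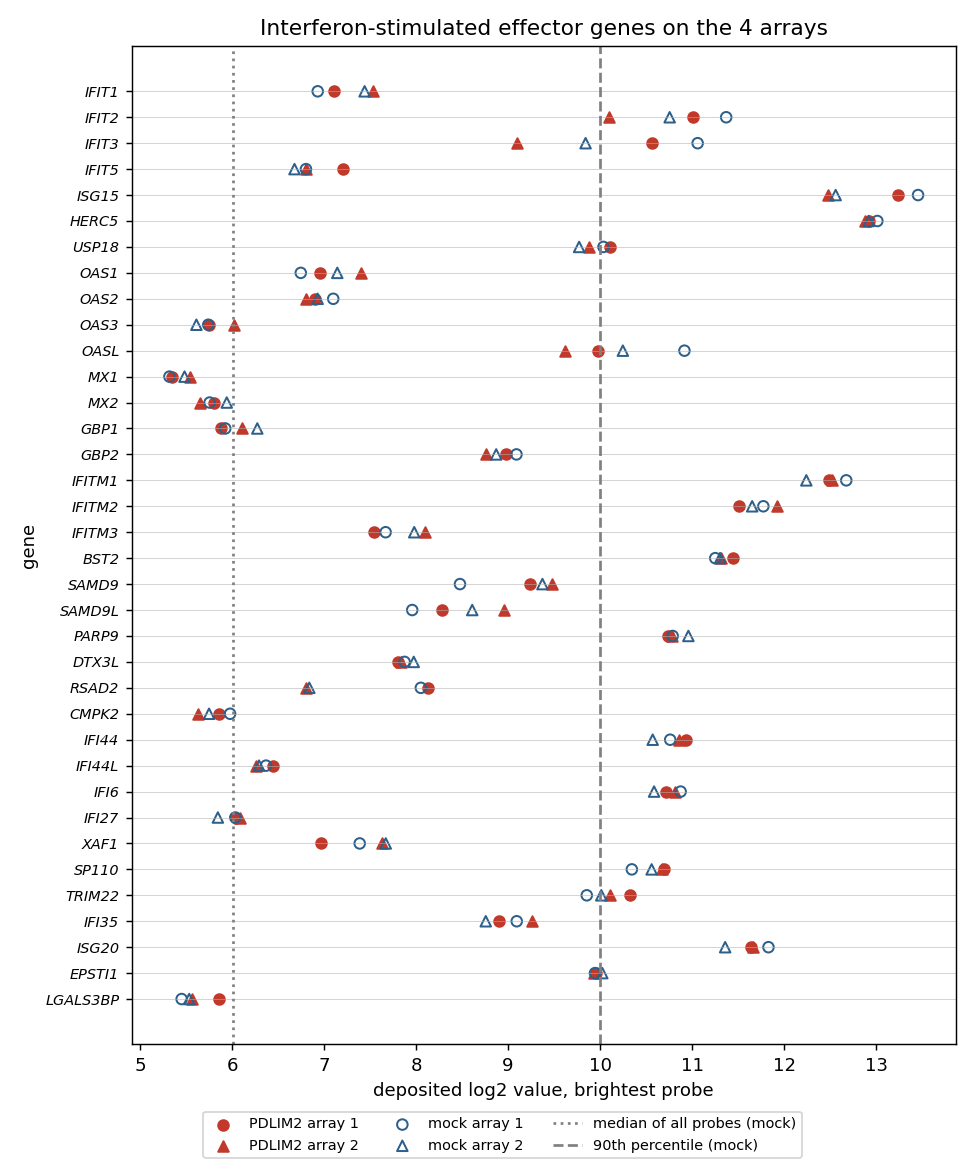
Deposited log2 value (x axis) of the brightest probe of each of the 36 genes (y axis, grouped by role) on the 2 PDLIM2 and 2 mock arrays, 1 symbol per array. Vertical lines mark the median and the 90th percentile of all probes on the mock arrays. MX1, MX2, OAS3, CMPK2 and LGALS3BP lie below the median on both mock arrays, and the symbols of IFIT3, IFIT2, ISG15 and RSAD2 split by array number (triangles against circles).

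The ISG15 system was bright throughout. ISG15, the ubiquitin-like modifier, read 13.23 and 12.47 log2 units in PDLIM2 arrays 1 and 2, against 13.45 and 12.56 in mock arrays 1 and 2. HERC5, the ligase that attaches ISG15 to newly made proteins, read 12.92 and 12.88 in PDLIM2 cells, against 13.01 and 12.92 in mock cells. USP18, which removes ISG15 and dampens signalling at the interferon receptor, missed the high class on 1 mock array, with percentiles of 90.2 and 88.8. It read 10.11 and 9.88 in the PDLIM2 arrays and 10.04 and 9.77 in the mock arrays. HERC5 was nearly level over the arrays, while ISG15 was split by the array number.

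The membrane-bound restriction factors were bright as well, with 3 of the 4 in the high class. BST2 (tetherin, which holds budding virus at the cell surface) read 11.44 and 11.32 in PDLIM2 arrays, against 11.25 and 11.30 in mock arrays. IFITM1, which blocks fusion of virus with the cell, read 12.49 and 12.52 in PDLIM2 cells and 12.67 and 12.24 in mock cells. IFITM2 had 11.51 and 11.92 in PDLIM2 cells and 11.77 and 11.65 in mock cells. For both IFITM genes the 2 groups overlapped. IFITM3, their endosomal relative, lay above the 75th percentile on both mock arrays, with 7.54 and 8.10 in PDLIM2 cells and 7.67 and 7.98 in mock cells. The IFITM genes are close relatives of each other, so a probe of one may also read another.

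The other high genes came from several roles. ISG20, an exonuclease that degrades RNA, read 11.64 and 11.66 in PDLIM2 arrays and 11.83 and 11.36 in mock arrays. IFI44, a cytoplasmic protein of the antiviral response, read 10.93 and 10.86 in PDLIM2 cells, against 10.76 and 10.57 in mock cells. PARP9, which binds the ubiquitin ligase DTX3L, read 10.73 and 10.78 in PDLIM2 cells, against 10.79 and 10.96 in mock cells. For IFI44 both PDLIM2 values lay above both mock values, and for PARP9 both lay below. SP110, a nuclear body protein, read 10.69 and 10.67 in PDLIM2 arrays and 10.34 and 10.56 in mock arrays. IFI6, a small protein that protects cells from death, read 10.72 and 10.82 in PDLIM2 arrays and 10.87 and 10.59 in mock arrays. IFIT2 and OASL, also high in mock cells, are described with the differences. Just outside the class were EPSTI1 (percentiles 89.7 and 90.1), TRIM22 (89.3 and 90.1) and IFIT3 (94.7 and 89.2). OASL, with 94.1 and 91.3, was just inside.

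Other classical interferon markers were dim in the same cells. MX1, a GTPase that traps viral capsids, read 5.34 and 5.54 log2 units in PDLIM2 arrays and 5.32 and 5.48 in mock arrays, at percentiles 2.38 and 8.42 on the mock arrays. MX2, its relative, read 5.80 and 5.65 in PDLIM2 cells and 5.76 and 5.94 in mock cells. LGALS3BP, a secreted glycoprotein, read 5.86 and 5.56 in PDLIM2 cells and 5.45 and 5.53 in mock cells. With OAS3 and CMPK2 these made the 5 genes without a probe above the filter used for testing, a mean over all arrays above the median of all probes (5.99). Signal over background was not given in the sources used here, so a low value does not show that a transcript was missing. MX1 and MX2 were each measured by 1 probe. GBP1, a GTPase that attacks membranes around pathogens, stood at the border, with 5.88 and 6.11 in PDLIM2 arrays and 5.93 and 6.27 in mock arrays.

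The second question was whether the effectors differed in cells given PDLIM2. They did not pass the test in either direction: limma called 0 of the 31 tested members at an adjusted p under 0.05, against 0% of all tested probes, with an adjusted p of 0.9998 for each member. At an unadjusted p under 0.05 there was 1 member with a lower value, OASL, and 0 with a higher value, against 1.74% and 1.08% of all tested probes. The median difference over the 31 was 0.022 log2 units, against 0.012 over all tested probes, with 18 members higher and 13 lower (52.8% and 47.2% of all tested probes). Over these 31 genes the differences ranged from -0.78 to 0.43. The groups did not overlap for 9 members (29.0%, background 28.6%): 5 were higher with PDLIM2 (BST2, IFI44, IFI27, SP110 and TRIM22, background 15.8%) and 4 were lower (OASL, OAS2, PARP9 and DTX3L, background 12.8%). By size, 0 members were at least 1.5-fold higher (background 0.449%) and 2, OASL and IFIT3, at least 1.5-fold lower (background 1.64%, and 2.09% in either direction). In bulk samples, fewer cells with a transcript and less of it per cell cannot be told apart.

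OASL, an OAS relative without its enzyme activity that boosts RNA sensing, had the largest absolute difference of the members. It read 9.98 and 9.62 log2 units in PDLIM2 arrays 1 and 2, against 10.92 and 10.25 in mock arrays 1 and 2. Both PDLIM2 values lay below both mock values, and the difference was -0.78 (SE 0.26, 0.582 times the mock level; limma, unadjusted p = 0.0196, adjusted p = 0.9998). Within array number 1 the OASL difference was -0.93, and within array number 2 it was -0.63. Its dimmer probe read 7.89 and 7.77 in PDLIM2 cells, against 8.54 and 7.94 in mock cells, a difference of -0.41 (SE 0.23). Without the PDLIM2 array 1 the value of the brighter probe was -0.96 and limma called it (adjusted p = 0.00938), a fit with 1 PDLIM2 array alone in which the array numbers are unbalanced. Without mock array 1 it was -0.45, without PDLIM2 array 2 -0.60 and without mock array 2 -1.12, and limma called it in none of these 3 fits (adjusted p from 0.9997 to 1).

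The neighbouring genes IFIT2 and IFIT3 followed in size, and both overlapped between groups. The proteins of both genes bind each other and IFIT1, which recognises viral RNA by its cap. IFIT2 read 11.01 and 10.10 in PDLIM2 arrays, against 11.37 and 10.76 in mock arrays, a difference of -0.51 (SE 0.34; limma, unadjusted p = 0.171). IFIT3 read 10.56 and 9.09 in PDLIM2 arrays, against 11.06 and 9.84 in mock arrays, a difference of -0.62 (SE 0.53; limma, unadjusted p = 0.278). Each was lower in PDLIM2 cells than in the mock array of the same number. In arrays 1 and 2 the differences were -0.36 and -0.66 for IFIT2 and -0.50 and -0.75 for IFIT3. The fit reported has no term for the array number, so the SE of every PDLIM2 difference also holds the spread between the numbers. With the array number as a term, limma gave an adjusted p of 0.527 for IFIT2 and 0.433 for IFIT3. Without the PDLIM2 array 1 the differences were -0.97 and -1.36, and limma called both (adjusted p = 0.00885 and 2.6e-05). Without the PDLIM2 array 2 they were -0.053 for IFIT2 and 0.11 for IFIT3, so the direction of IFIT3 turned. These fits hold 1 PDLIM2 array and leave the numbers unbalanced.

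The higher values were smaller. SAMD9 and SAMD9L, adjacent genes for large cytoplasmic proteins that restrict poxviruses and cell growth, were higher by 0.43 (SE 0.30) and 0.33 (SE 0.30). SAMD9 read 9.24 and 9.48 in PDLIM2 arrays and 8.48 and 9.37 in mock arrays, and the groups overlapped. The SAMD9 difference was 0.76 within array number 1 and 0.11 within array number 2, and it was -0.014 without the mock array 1. SAMD9L read 8.28 and 8.95 in PDLIM2 cells and 7.96 and 8.61 in mock cells, with differences of 0.33 and 0.34 in the arrays numbered 1 and 2. Leaving out 1 array at a time, the SAMD9L difference ranged from 0.0005 (without PDLIM2 array 2) to 0.67 (without PDLIM2 array 1). TRIM22, an antiviral ubiquitin ligase of the TRIM family, read 10.32 and 10.11 in PDLIM2 arrays, against 9.85 and 10.01 in mock arrays, without overlap (difference 0.28, SE 0.18). IFIT5, which binds RNA with a 5′ phosphate, read 7.21 and 6.80 in PDLIM2 cells and 6.80 and 6.68 in mock cells (difference 0.26, SE 0.20). XAF1, a promoter of apoptosis, was lower, with 6.97 and 7.62 in PDLIM2 cells and 7.39 and 7.67 in mock cells (difference -0.23, SE 0.25), and its value was 0.096 without the PDLIM2 array 1. None of these had an unadjusted p under 0.05 in limma, and the lowest of them was 0.159.

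Between the array numbers the members were spread more widely. Values of 10 of the 31 tested members had an unadjusted p under 0.05 between arrays numbered 2 and arrays numbered 1 (32.3%, limma), against 16.6% of all tested probes, and 0 members passed at an adjusted p of 0.05, against 0.0296% of all probes (0.0169% higher and 0.0127% lower). The lower ones were 4 (background 7.3%), namely IFIT3, RSAD2, ISG15 and IFIT2, and the higher ones 6 (background 9.29%), namely SAMD9L, SAMD9, XAF1, IFIT1, IFITM3 and OAS1. The same 4 lower genes were the members at least 1.5-fold lower in arrays 2 (background 2.59%), and SAMD9L was the member at least 1.5-fold higher (background 2.73%). Arrays of the 2 numbers did not overlap for 16 members (51.6%, background 49.5%), 7 higher and 9 lower in arrays 2 (background 24.8% each), a share near the background. By sign, 13 members were higher and 18 lower, against 49.7% and 50.3% of all tested probes. The SD over the 31 differences was 0.47 log2 units, against 0.30 over all tested probes. In these shares and SDs, and in those between PDLIM2 and mock, members enter by their brightest probe. The background holds every tested probe, also dimmer and unnamed ones, so the sets are not alike. For PDLIM2 minus mock the SDs were 0.27 over the members and 0.22 over all probes. The number difference was larger in size than the PDLIM2 difference for 20 of the 31 (64.5%), against 60.7% of all tested probes, a share near the background.

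The 4 lower genes were lower in arrays 2 in both groups. RSAD2 (viperin), which makes a nucleotide that stops viral polymerases, read 6.80 (PDLIM2) and 6.84 (mock) in arrays 2, against 8.13 (PDLIM2) and 8.05 (mock) in arrays 1. That was a difference of -1.27 (SE 0.13, 0.415 times the level in arrays 1; limma, unadjusted p = 2.6e-05, adjusted p = 0.0530), just outside the threshold, while PDLIM2 minus mock was 0.020 (SE 0.50). The 2 groups were nearly level for RSAD2 within each number, with PDLIM2 minus mock at 0.078 in arrays 1 and -0.037 in arrays 2. ISG15, bright on all arrays, was lower in arrays 2 by -0.76 in PDLIM2 cells and -0.90 in mock cells, a fitted difference of -0.83 (SE 0.15; limma, adjusted p = 0.0957). IFIT3 differed by -1.34 (SE 0.27; limma, adjusted p = 0.114), with -1.47 in PDLIM2 cells and -1.22 in mock cells. IFIT2 differed by -0.76 (SE 0.24; limma, adjusted p = 0.203), with -0.91 and -0.61. Some other fits did call these genes: RSAD2 passed with no filter, limma-trend, a robust prior, the mean over probes and the transfection as a term (adjusted p from 0.0196 to 0.0365), ISG15 with limma-trend (0.0330) and IFIT3 with the transfection as a term (0.0365). With the offset of 50 RSAD2 had an adjusted p of 0.148 (limma). Leaving out 1 array at a time leaves 1 array alone for a number. The differences then ranged from -1.31 to -1.23 for RSAD2 and from -0.94 to -0.72 for ISG15. For IFIT3 the range was -1.72 to -0.97 and for IFIT2 -1.09 to -0.43. Whether limma called these genes depended on the array left out.

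**Figure D2:**
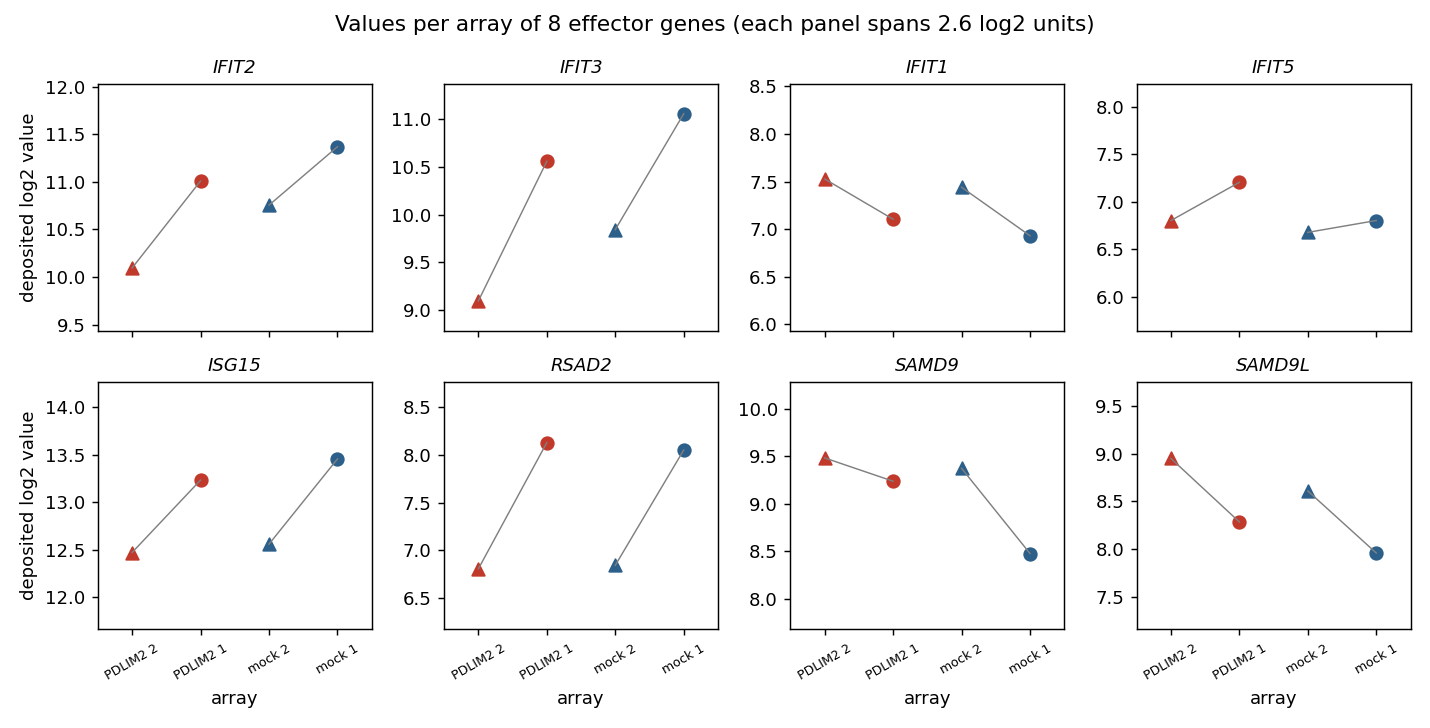
Deposited log2 value (y axis, every panel of equal span) of 8 genes on the PDLIM2 arrays (red) and mock arrays (blue), with triangles for arrays numbered 2 and circles for arrays numbered 1, and a line joining the arrays of a group. IFIT2, IFIT3, ISG15 and RSAD2 are lower in arrays 2 in both groups, and IFIT1, SAMD9 and SAMD9L are higher.

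The genes with higher values in arrays 2 belonged to the same response. SAMD9L differed by 0.66 (SE 0.18) and SAMD9 by 0.57 (SE 0.24) between the numbers, and XAF1 by 0.47 (SE 0.17). IFIT1 read 7.53 (PDLIM2) and 7.44 (mock) in arrays 2, against 7.10 and 6.93 in arrays 1, a difference of 0.47 (SE 0.14). IFITM3 differed by 0.43 (SE 0.14), and OAS1, which makes the 2-5A signal that activates RNase L, by 0.42 (SE 0.16). The OAS1 value rests on 1 probe: its other tested probes differed by -0.25 and 0.089, and the mean over probes by 0.0096 (limma, adjusted p = 0.979). The values of IFIT1 and XAF1 also rest on the brighter probe. The dimmer IFIT1 probe, under the filter, differed by 0.049 (fit on all probes), and the mean over IFIT1 probes by 0.26. For XAF1 the dimmer tested probe differed by -0.047. Adjusted p-values of these 6 lay between 0.178 and 0.299 (limma). OASL, lower with PDLIM2, was also lower in arrays 2, by -0.52 (SE 0.32), with -0.36 in PDLIM2 cells and -0.67 in mock cells. Leaving out 1 array at a time, this OASL difference ranged from -0.98 (without PDLIM2 array 1) to -0.048 (without mock array 1).

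The order of the arrays was the same for several of the lower genes. IFIT2, IFIT3, ISG15, HERC5 and GBP2, a GTPase acting on membranes of pathogens, had their highest value in mock array 1, then PDLIM2 array 1, mock array 2 and PDLIM2 array 2. This order, noticed after the values were seen, held for 5 of the 31 tested members (16.1%) and for 7.5% of all tested probes. For HERC5 and GBP2 the steps were small, with differences between the numbers of -0.067 (SE 0.14) and -0.22 (SE 0.14).

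**Figure D3:**
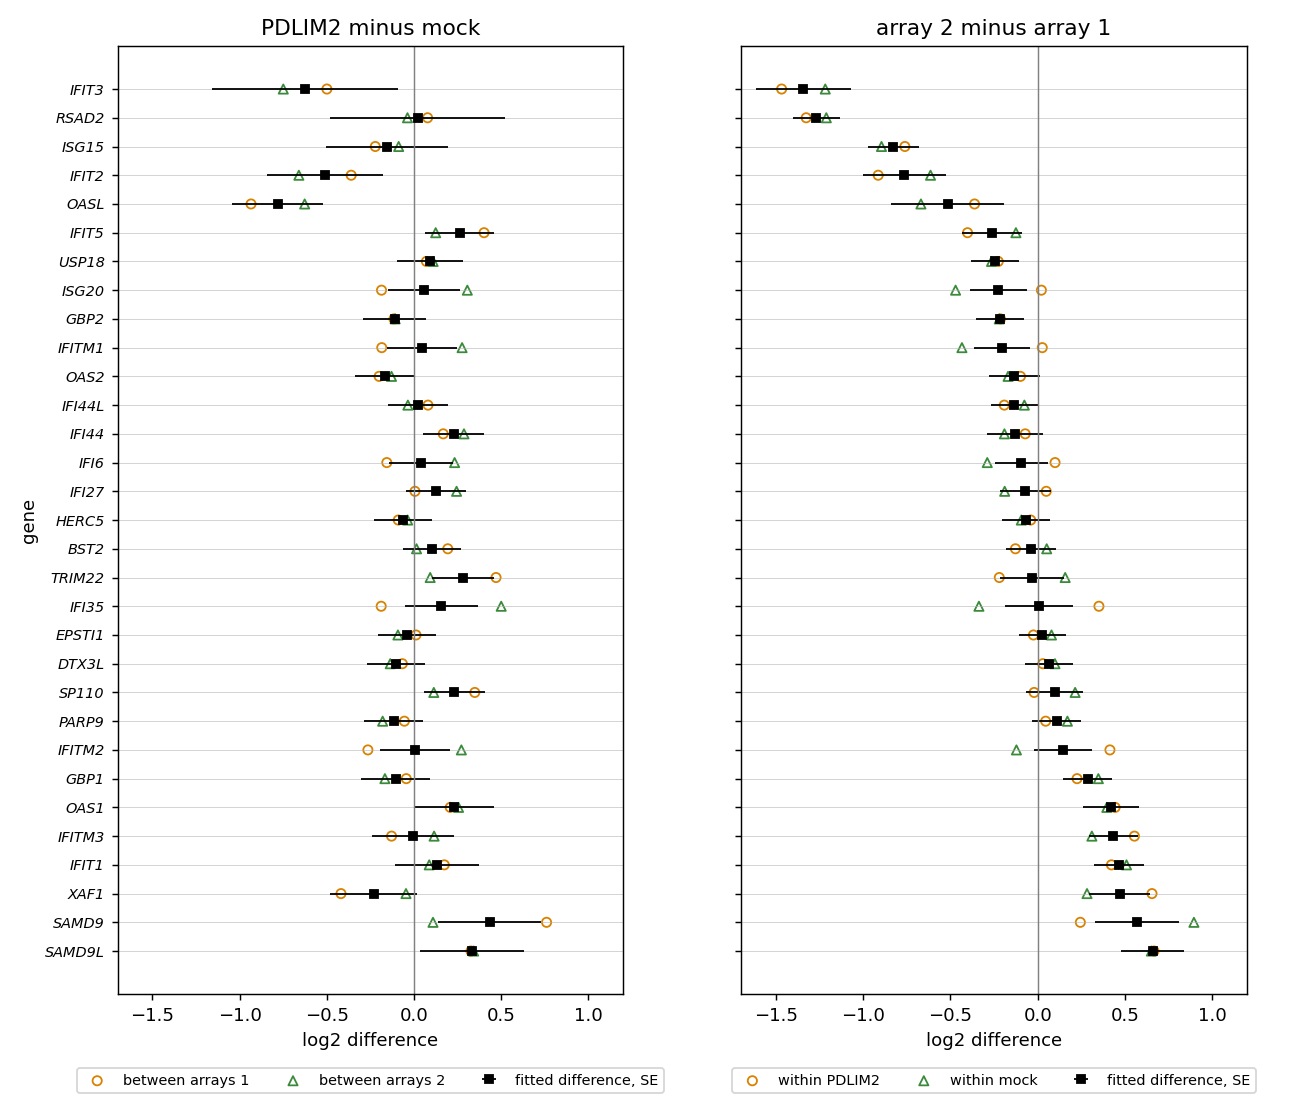
Log2 differences (x axis) of the 31 tested genes (y axis, ordered by the array-number difference). The left panel shows PDLIM2 minus mock and the right panel array 2 minus array 1, with squares and bars for the limma estimate and its SE, and open symbols for the difference within each array number (left) or each group (right). The left panel runs from -0.78 (OASL) to 0.43 (SAMD9), the right one from -1.34 (IFIT3) to 0.66 (SAMD9L).

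Genes that lie next to each other did not always share a pattern. In the IFIT cluster IFIT2 and IFIT3 are neighbours and were lower in arrays 2. IFIT1 was higher by its brighter probe, and IFIT5 was lower by -0.26 (SE 0.17). RSAD2 and CMPK2, a mitochondrial nucleotide kinase, are adjacent, and CMPK2 was dim, at 5.86 and 5.63 in PDLIM2 arrays and 5.98 and 5.75 in mock arrays. Its difference between the numbers was -0.23 (SE 0.13), from the fit on all probes. SAMD9 and SAMD9L lay on the higher side in both comparisons. PARP9 and DTX3L lie side by side and form a complex. DTX3L read 7.81 and 7.84 in PDLIM2 cells and 7.88 and 7.97 in mock cells, and the PDLIM2 differences were -0.12 (PARP9) and -0.10 (DTX3L). Between the numbers DTX3L differed by 0.065 and the brightest PARP9 probe by 0.11 (SE 0.14), while the dimmer PARP9 probe differed by 0.43 (SE 0.14; limma, unadjusted p = 0.0174), without overlap. In the OAS cluster OAS1 read 6.95 and 7.40 in PDLIM2 arrays and 6.75 and 7.14 in mock arrays, OAS2 6.90 and 6.80 against 7.10 and 6.93, and OAS3 5.75 and 6.03 against 5.74 and 5.61. Their PDLIM2 differences were 0.23 (SE 0.23), -0.16 (SE 0.17) and, from the fit on all probes, 0.21 (SE 0.16). GBP1 and GBP2 both had a PDLIM2 difference of -0.11, and GBP2 read 8.98 and 8.76 in PDLIM2 arrays and 9.09 and 8.87 in mock arrays.

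Probes of the same gene did not always share a sign. Of the 8 members with several tested probes, 4 had probes of opposite sign for PDLIM2 minus mock (IFI6, OAS1, OAS2 and PARP9). For the array numbers there were 2 (OAS1 and XAF1). The share over all genes with several probes was not computed. PDLIM2 differences ran from -0.01 to 0.23 for OAS1, -0.16 to 0.15 for OAS2 and -0.12 to 0.06 for PARP9. With SEs of 0.17 to 0.24, the signs of these probes are not well determined. For PDLIM2 minus mock, IFI6 had the widest gap among the 4 genes with probes of opposite sign. Its dimmer probe, annotated to another transcript, read 9.09 and 7.92 in PDLIM2 arrays and 9.30 and 8.74 in mock arrays, a PDLIM2 difference of -0.52 (SE 0.38) where the brighter probe gave 0.038 (SE 0.18). Between the numbers the dimmer IFI6 probe differed by -0.86 (SE 0.26) and the brighter one by -0.095 (SE 0.15). All 3 IFIT3 probes were lower in both comparisons, with PDLIM2 differences from -1.08 to -0.50 and number differences from -1.81 to -0.70. All 4 SP110 probes were higher in both by the fitted difference, with PDLIM2 differences from 0.090 to 0.53. They were not all higher within each pair of arrays. The SP110 probe at 8.59 and 9.27 in mock arrays had PDLIM2 differences of 0.49 in arrays 1 and -0.31 in arrays 2. Between the numbers that probe differed by -0.11 in PDLIM2 cells and 0.69 in mock cells. The SP110 probe with the largest difference read 7.56 and 8.43 in PDLIM2 arrays and 7.11 and 7.82 in mock arrays, and between the numbers it differed by 0.79 (SE 0.24).

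The genes that carry the interferon signal mostly passed the filter used for testing, apart from the interferons. Of a list of 31 such genes that are not members, 29 had a named probe and 20 passed the filter. None of the 9 interferon genes passed it, IFNB1 and IFNG among them. All 6 receptor chains passed, with IFNGR2 at percentiles 98.4 and 98.0 on the mock arrays. Between PDLIM2 and mock, limma called 0 of the 20 at the adjusted threshold. At an unadjusted p under 0.05, 1 had a higher and 2 had a lower value (background 1.08% and 1.74%). The higher one was SOCS3, an inhibitor of cytokine receptor signalling, and the lower ones were IRF1, an activator of interferon-stimulated genes, and the receptor kinase gene JAK1. JAK1 read 9.29 and 8.65 in PDLIM2 arrays, against 9.47 and 9.83 in mock arrays (difference -0.68, limma, unadjusted p = 0.0312). The median PDLIM2 difference of the 20 was -0.16, against 0.022 for the tested effectors. Between the numbers, the RNA sensor IFIH1 had 10.96 (PDLIM2) and 11.42 (mock) in arrays 2, against 12.01 and 11.91 in arrays 1 (difference -0.77; limma, unadjusted p = 0.00349, adjusted p = 0.146).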

How the data were processed

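Expression was measured on 4 Illumina bead arrays of L591 cells. The deposited values are log2 intensities of single probes, and how the submitters corrected background or normalized the arrays is not given in the sources used here. They were used without further scaling, since quartiles were nearly equal between arrays. Probes were named through GEO's platform annotation (30112 with 1 symbol, 8 with several and left unnamed, 17110 not listed), and 1 probe with an empty cell was left out.

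Probes with a mean above the median (5.99) were tested, 23615 in number. Of the 55 member probes 43 passed, for 31 genes, and a fit on all probes supplied the other members' values. Differences were fitted with limma 3.58.1 in R 4.3.3 (lmFit, eBayes), for the transfection alone and for the array number alone, with two-sided p-values adjusted by Benjamini-Hochberg at 0.05. The script was tested on simulated data. Alternatives were other filters, normalizations, an offset, variance priors, the mean over probes, a term for the other factor and leaving out each array.

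The members and lists were chosen with earlier results of these data known. By rule, values per array are given for members high in mock arrays, the 8 with the largest absolute difference in each comparison, members with discordant probes, and families or neighbours. USP18, LGALS3BP, the signalling genes named and the printed promoters were added after their values were seen.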

Additional observations from a re-analysis of the deposited data

How the results depend on the processing

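With the replicate block, 2 member genes were higher and 3 lower past an unadjusted p of 0.05 between PDLIM2 and mock (2.98% and 4.69% of all tested probes, against 1.08% and 1.74% without the block), and limma called 0 probes higher and 1 lower. Same-numbered arrays deviated together (r = 0.48 over tested probes), but the labels give them only a shared number. With the mean over probes IFI6 had a PDLIM2 difference of -0.24, opposite to its brightest probe. Between the array numbers, probes called higher and lower numbered 102 and 33 with no filter, 0 and 1 with a filter at the 75th percentile, 0 and 0 with an offset of 50, 197 and 57 with limma-trend, 70 and 24 with a robust prior, and 39 and 16 with the transfection as a term, against 4 and 3 in the fit reported. Member genes higher past an unadjusted p numbered 2 with the 75th percentile filter (6.72% of all probes tested) and 3 with the mean over probes (10% of all values tested), against 6 (9.29%). IFIT1, OAS1 and XAF1, with means of 7.25, 7.06 and 7.41, lay under the 75th percentile filter (7.54) and were not tested with it. The cause of the other shifts was not tested.

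Leaving out each array in turn leaves 1 array alone in a group, assumed to vary like the others, and unbalances the numbers. Between PDLIM2 and mock, probes called then ranged from 0 to 163 higher and 0 to 647 lower, and member genes past an unadjusted p from 0 to 2 higher and 0 to 5 lower (most without PDLIM2 array 1, where 4.71% and 6.89% of all tested probes passed, and none without mock array 1). Between the numbers they ranged from 0 to 1697 and 0 to 1802 probes, and from 1 to 6 and 3 to 5 member genes. Median member differences ranged from -0.032 to 0.059 and from -0.077 to -0.0036. PDLIM2 differences whose sign turned ranged as follows, lowest to highest: IFIT1 -0.12 to 0.39, IFIT3 -1.36 to 0.11, ISG15 -0.60 to 0.29, ISG20 -0.18 to 0.29, IFI6 -0.11 to 0.18, IFI35 -0.0199 to 0.33, IFI44L -0.073 to 0.12, RSAD2 -0.64 to 0.68, USP18 -0.042 to 0.22, IFITM1 -0.17 to 0.26, IFITM2 -0.20 to 0.21, IFITM3 -0.28 to 0.27, SAMD9 -0.014 to 0.88, XAF1 -0.56 to 0.096, GBP1 -0.28 to 0.068. Number differences whose sign turned were IFI6 -0.21 to 0.022, IFI27 -0.19 to 0.052, IFI35 -0.24 to 0.26, IFI44 -0.27 to 0.012, BST2 -0.13 to 0.059, EPSTI1 -0.018 to 0.074, DTX3L -0.0036 to 0.13, SP110 -0.077 to 0.27, TRIM22 -0.27 to 0.20.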
